A study of Rattus norvegicus with 16 samples.

Results

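Alcohol dehydrogenases, aldehyde dehydrogenases, aldo-keto reductases, flavin-containing monooxygenases and carboxylesterases carry out the phase I reactions of drug and metabolite breakdown that do not use a cytochrome P450. Their genes were taken as every gene symbol of the count files that begins with Adh, Aldh, Akr, Fmo or Ces followed by a digit, and the values of 62 such genes, of 17055 symbols in all, are given: 6 Adh, 19 Aldh, 18 Akr, 5 Fmo and 14 Ces. The rule used names alone and no measured value. Liver RNA was sequenced from male Sprague-Dawley rats aged 10 weeks that were made septic by cecal ligation and puncture or had the opening of the abdomen (celiotomy) with the cecum lifted out and put back as control, and livers were taken 8 h later, with anesthesia kept up throughout. The 4 groups were Isoflurane sepsis (libraries 1 to 4), isoflurane control (libraries 5 to 8), Propofol sepsis (libraries 9 to 12) and propofol control (libraries 13 to 16), and every library was a pool of 3 rats. Rats of the isoflurane groups received isoflurane for induction and maintenance, whereas the propofol groups had ketamine-xylazine for induction before propofol, both in pure oxygen. Any difference between the anesthetics is therefore also a difference between induction drugs, and since the deposited files are named in one series for isoflurane and in another for propofol, with no meaning given in the sources used here, any batch behind these names cannot be told apart from the anesthetic. No unoperated or unanesthetized rats were among the samples, so a control here is an operated, anesthetized rat.

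Alcohol dehydrogenases oxidize alcohols, retinol among them, to aldehydes, and aldehyde dehydrogenases carry aldehydes on to acids. Aldo-keto reductases work in the other direction on aldehydes and ketones, including steroids. Flavin-containing monooxygenases add oxygen to nitrogen and sulfur atoms, and carboxylesterases split esters, amides and many prodrugs. Hepatocytes are a major site of these enzymes, and the nuclear receptors CAR and PXR, encoded by Nr1i3 and Nr1i2, are known to raise the transcription of many drug-metabolizing genes.

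For some members described below, the sequence around the annotated gene start is shown, and where their RNA starts in these libraries was not measured. RefSeq holds a promoter window of 250 bases before to 50 bases after the gene start, in the build GRCr8, for 52 of the 62 members. Among members called lower under both anesthetics, the windows of the 4 with the lowest mean log2 fold change of the 2 comparisons are shown first, followed by Ces1c, the carboxylesterase with most reads, which did not pass the test under either anesthetic. Capitals mark every match, on either strand, to CCAAT, TTGCNNAA (a C/EBP-type motif), TGACNNNGC (the core of the antioxidant response element) or TATAAA.
Adh4 (chr2:229621842-229622141, plus strand): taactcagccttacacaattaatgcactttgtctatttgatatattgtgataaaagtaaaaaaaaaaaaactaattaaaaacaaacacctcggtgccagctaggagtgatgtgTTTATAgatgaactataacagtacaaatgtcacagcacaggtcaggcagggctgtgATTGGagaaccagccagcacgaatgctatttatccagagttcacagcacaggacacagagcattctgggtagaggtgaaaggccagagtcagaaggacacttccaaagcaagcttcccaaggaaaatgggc
Akr1c14 (chr17:71083135-71083434, minus strand): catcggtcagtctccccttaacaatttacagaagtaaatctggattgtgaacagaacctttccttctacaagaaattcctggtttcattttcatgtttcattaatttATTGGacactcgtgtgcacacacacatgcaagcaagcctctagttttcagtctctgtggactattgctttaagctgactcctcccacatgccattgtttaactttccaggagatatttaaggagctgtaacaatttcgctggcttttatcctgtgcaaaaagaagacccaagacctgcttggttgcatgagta
Aldh3a2 (chr10:46448286-46448585, minus strand): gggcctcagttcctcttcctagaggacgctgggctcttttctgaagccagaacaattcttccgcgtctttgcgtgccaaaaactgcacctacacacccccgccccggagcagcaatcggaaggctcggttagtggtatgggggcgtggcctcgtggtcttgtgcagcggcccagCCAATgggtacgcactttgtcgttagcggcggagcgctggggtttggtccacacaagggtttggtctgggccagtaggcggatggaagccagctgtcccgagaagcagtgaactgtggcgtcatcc
Akr7a3 (chr5:156876471-156876770, plus strand): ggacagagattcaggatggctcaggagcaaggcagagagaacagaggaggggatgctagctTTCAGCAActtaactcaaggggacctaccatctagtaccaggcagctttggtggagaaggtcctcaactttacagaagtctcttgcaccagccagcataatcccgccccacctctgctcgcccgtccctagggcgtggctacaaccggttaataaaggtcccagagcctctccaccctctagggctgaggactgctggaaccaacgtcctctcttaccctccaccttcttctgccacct
Ces1c (chr19:30099197-30099496, plus strand): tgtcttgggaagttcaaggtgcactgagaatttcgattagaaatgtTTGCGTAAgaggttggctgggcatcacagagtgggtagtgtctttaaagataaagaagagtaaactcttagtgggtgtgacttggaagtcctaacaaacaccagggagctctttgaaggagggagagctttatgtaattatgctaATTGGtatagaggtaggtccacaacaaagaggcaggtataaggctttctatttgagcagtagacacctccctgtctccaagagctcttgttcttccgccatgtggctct
Adh4, Akr1c14, Aldh3a2 and Ces1c each held CCAAT, Akr7a3 and Ces1c held TTGCNNAA, and Adh4 also held TATAAA. Over all members, the first of these motifs (CCAAT) was present in 32 of the 52 member promoters (61.5%) and in 37.7% of all 27457 promoters of the table. TTGCNNAA was present in 11 of 52 (21.2%) and in 10.5% of all promoters, TGACNNNGC in 5 (9.62%) and 12.2%, and TATAAA in 7 (13.5%) and 14.3%. The HNF1 consensus was found in 1 member promoter and in 0.346% of all promoters, and the direct repeat DR1 of the nuclear receptors in 0 members and 0.0583% of all. Of the 25 members called lower under both anesthetics, 21 had a window, and 11 of these held CCAAT and 1 held TTGCNNAA. No match of a motif is a binding site by itself, and its absence from these 300 bases says nothing about the factor.

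The libraries held between 14199422 and 49937173 reads on genes, and members took between 0.422% and 0.912% of them. Of the 62 members, 50 had enough reads to be tested under isoflurane, 48 under propofol and 50 between the controls. The other 12 held at most 31 reads over all 16 libraries, and 4 of them (Aldh18a1, Ces1f, Ces2 and Fmo9p) held no read. The summed level of 12 hepatocyte markers lay between 159054 and 180046 CPM (reads on the genes scaled to a common library depth, after TMM) in Isoflurane sepsis and between 173196 and 184177 CPM in its controls. It lay between 138216 and 143535 CPM in Propofol sepsis and between 135733 and 144965 CPM in its controls. The labelled tissue was thus present in every library, but 3 of the 4 Isoflurane sepsis libraries lay below every isoflurane control, and single markers did not all follow the sum, which mostly shows Alb, Fgb and Serpina1. Hnf4a, a transcription factor of hepatocytes, was called lower under both anesthetics (322 ± 46.5 against 680.2 ± 19.4 CPM, log2 -1.06 ± 0.11, adjusted p = 0.000155, and 584 ± 48.0 against 973 ± 38.4 CPM, log2 -0.73 ± 0.06, adjusted p = 5.63e-05). Its part in the members' values was not tested. Hnf4a belongs to the 12 hepatocyte markers, and the other markers are not given group by group here. The ranges of the summed list overlapped under propofol. No source used here says how the counting divided reads between genes of close sequence, so single values of Adh6 (beside Adh6a), Aldh1a7 (beside Aldh1a1), the Akr1c genes and the Ces1 and Ces2 genes are less certain than those of other members.

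Other cell types moved with sepsis beside the results that follow. Markers of neutrophils and monocytes (11 of 12 in the files, Ly6c at 0) summed to between 37.4 and 120 CPM in Isoflurane sepsis against 18.8 to 21.8 CPM in its controls, and to between 38.8 and 54.7 CPM in Propofol sepsis against 20 to 28 CPM. Endothelial markers (7 of 9 in the files) summed to between 127 and 147 CPM against 179 to 221 CPM under isoflurane, and to between 185 and 192 CPM against 223 to 261 CPM under propofol. Ranges of sepsis and control overlapped for the Kupffer cell and cholangiocyte lists under both anesthetics and for the stellate cell and lymphocyte lists under isoflurane. Under propofol the stellate cell list was lower in sepsis (323 to 369 against 374 to 391 CPM), with Col1a2 at 0, and so was the lymphocyte list (10.8 to 13.3 against 14.2 to 16.3 CPM). Library 10 of Propofol sepsis held markers of brain that summed to 251 CPM, against 5.51 to 17.0 CPM in the control libraries. The part of these cell types in the members' values was not tested, and in bulk tissue fewer cells of a type and less RNA per cell cannot be told apart.

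Under isoflurane most members were lower in sepsis than in control. Isoflurane sepsis was called lower than isoflurane control for 31 of 50 tested members and higher for 1, Akr1b8, and 18 were not called. Among all 10361 genes tested 24.4% were called lower and 25.7% higher. The median log2 fold change of the members was -0.90, against 0.0061 for all genes. In 32 of the 50 members every sepsis library lay below every control library, which held for 25.4% of all genes tested.

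Sepsis under propofol gave a similar count. Propofol sepsis was called lower than propofol control for 32 of 48 members and higher for 1, Fmo5, and 15 were not called. Among all 10348 genes tested 21.7% were called lower and 20.4% higher. The median log2 fold change of the members was -0.67, against -0.0016 for all genes, and in 28 of the 48 members every sepsis library lay below every control library (21.4% of all genes). The propofol comparison with library 10 left out kept 31 of its 33 calls, and the losses were Aldh3b1 (adjusted p = 0.0705) and Akr1a1 (adjusted p = 0.0513).

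Of the 48 members tested under both anesthetics, 25 were called lower under both. Of all genes tested 24.4% were called lower under isoflurane and 21.7% under propofol, and the share lower under both was not counted. The 6 called lower under isoflurane and not under propofol were Aldh1a7, Aldh1b1, Akr1c3, Fmo2, Ces2g and Adh6, of which Adh6 was too low to test under propofol. The 7 called lower under propofol and not under isoflurane were Adh1, Aldh3b1, Akr1a1, Akr1b1, Akr1c2, Ces1e and Ces4a. Being called under 1 anesthetic and not the other does not show a difference, which was tested as an interaction. A set of 20 members remained called lower under both anesthetics, at the same threshold, in all 13 alternatives of each comparison. These alternatives changed the scaling, the filter, the tool or the libraries of the fit, and how many of all genes remained called was not counted. The set held 3 Adh, 8 Aldh, 8 Akr, 1 Fmo and 0 Ces.

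**Figure D1:**
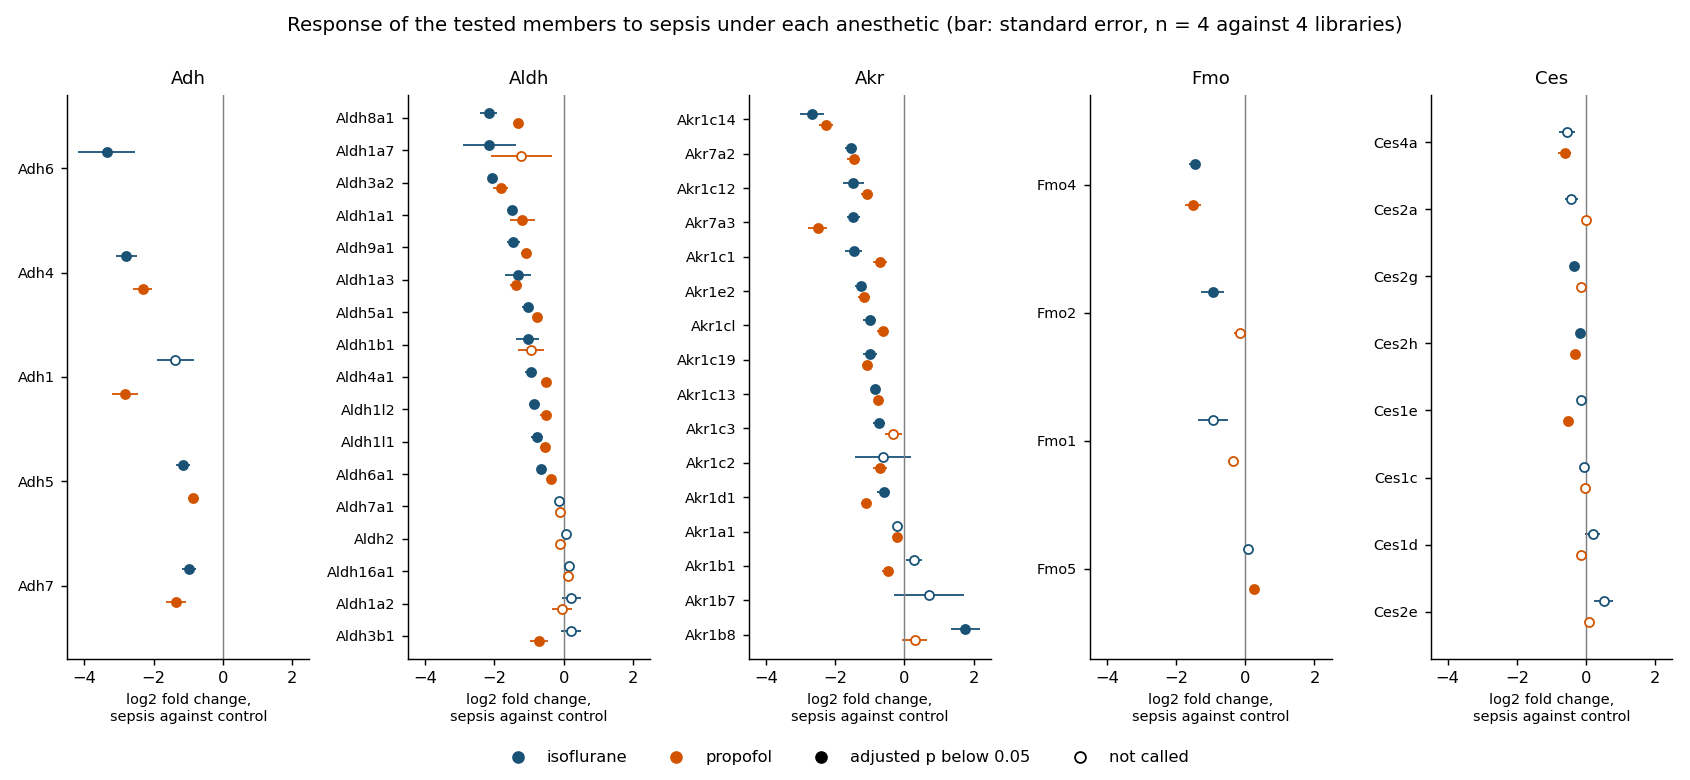
Log2 fold change of sepsis against control (horizontal axis) for the members tested, by family, with isoflurane in blue, propofol in orange, standard errors as bars, and filled points for an adjusted p below 0.05. Most Adh, Aldh and Akr points lie left of 0, down to -3.35 for Adh6, whereas the Ces points lie between -0.62 and 0.51.

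The families differed in how much of their RNA was lost. The summed level of the Adh genes in Isoflurane sepsis was 38.2% of that in isoflurane control (168 ± 99.2 against 439 ± 60.4 CPM, mean ± SD, n = 4), and under propofol it was 21.6% (138 ± 17.3 against 640 ± 322 CPM). The Akr sum was 46.4% of control under isoflurane (653 ± 97 against 1406 ± 54.8 CPM) and 37.5% under propofol (836 ± 134 against 2227 ± 173 CPM). The Aldh sum was 69.2% of control under isoflurane (2117 ± 234 against 3059 ± 98.6 CPM) and 70.2% under propofol (2078 ± 116 against 2961 ± 251 CPM). In each of these 3 families every sepsis library was below every control library under both anesthetics.

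The Fmo and Ces sums did not follow. The Fmo sum stood at 102% of control under isoflurane (606 ± 83.1 against 594 ± 30.6 CPM) and at 115% under propofol (537 ± 29.2 against 466 ± 43.1 CPM), where the lowest sepsis library, at 507 CPM, was just above the highest control, at 504 CPM. The Ces sum was 95.5% of control under isoflurane (1243 ± 110 against 1302 ± 47.8 CPM) and 95.7% under propofol (1120 ± 35.4 against 1171 ± 118 CPM), with overlapping libraries. A sum mostly shows its most abundant members. Fmo5 alone made up between 90.0% and 99.1% of the Fmo sum, and Ces1c alone between 83.9% and 89.8% of the Ces sum. Without the member with most reads (Adh1, Aldh2, Akr1c14, Fmo5 and Ces1c) the sums under isoflurane were 38.5%, 55.6%, 66.7%, 50.5% and 97.3% of control in the order Adh, Aldh, Akr, Fmo, Ces, and under propofol 53.5%, 63.1%, 52.8%, 75.6% and 83.8%.

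**Figure D2:**
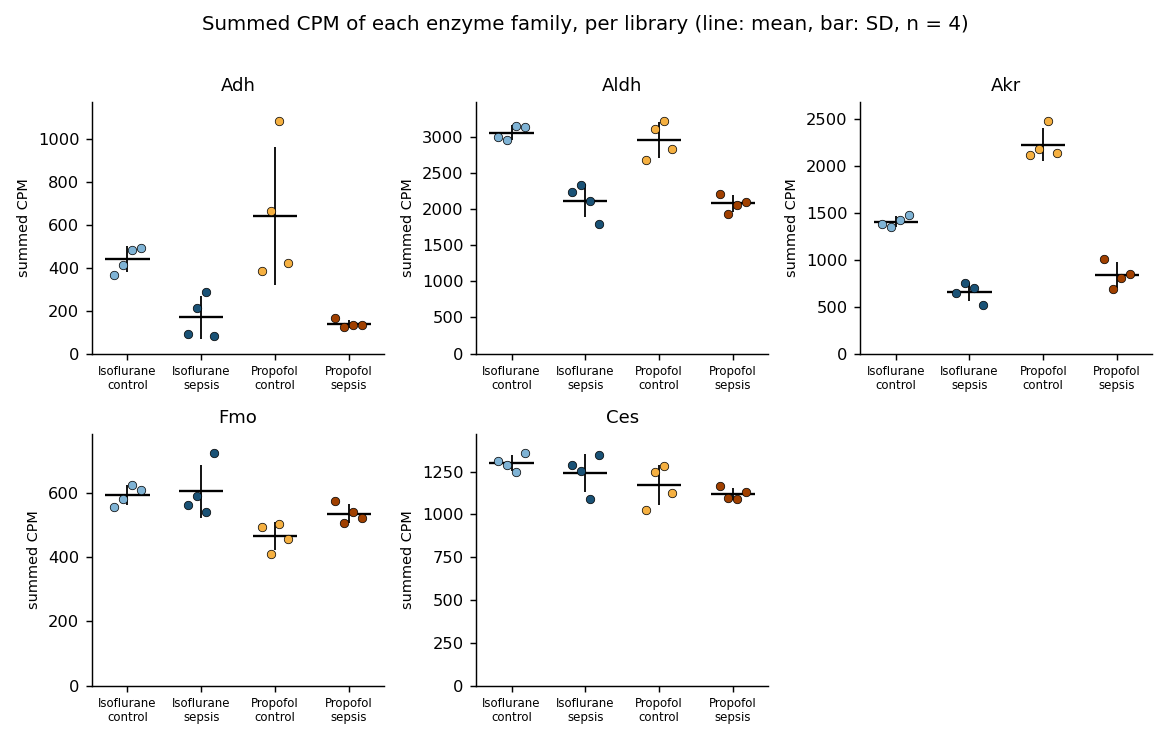
Summed CPM of the members of each family (vertical axis, from 0) in each library of the 4 groups, with the group mean as a line and the SD as a bar. The Adh, Aldh and Akr sums are lower in all sepsis libraries than in their controls, the Fmo sum is higher in Propofol sepsis, and the Ces sums overlap.

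Among the alcohol dehydrogenases 4 of 5 tested members were called lower under isoflurane and 4 of 4 under propofol (24.4% and 21.7% of all genes tested). Adh1, the class I enzyme that oxidizes ethanol and retinol, stood at 37.2, 154, 242 and 51.4 CPM in libraries 1 to 4 of Isoflurane sepsis and at 243, 301, 359 and 367 CPM in the controls. All sepsis libraries were below the controls, with library 3 close to the lowest control, and the log2 fold change of -1.37 ± 0.53 (SE) was not called (adjusted p = 0.0561). It was called without library 3 (-1.97, adjusted p = 0.00961), by DESeq2 (adjusted p = 0.0416), in the fit of all 16 libraries (adjusted p = 0.0253) and with scaling by library totals alone (adjusted p = 0.0440). Under propofol Adh1 was at 94.7, 77.8, 59.0 and 56.5 CPM in sepsis and at 283, 524, 945 and 311 CPM in control. This was a 7.14-fold fall (log2 -2.84 ± 0.38, adjusted p = 0.000383), and the controls themselves ranged widely.

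Adh4, the class II enzyme, showed the largest fall of the family under isoflurane among members measured under both anesthetics. It was at 0.198, 0.841, 0.724 and 0.707 CPM in Isoflurane sepsis and at 3.34, 4.08, 4.95 and 4.58 CPM in control, a 6.89-fold fall (log2 -2.78 ± 0.32, adjusted p = 0.000244). Under propofol it was at 1.25, 0.572, 0.754 and 0.676 CPM in sepsis and at 4.09, 3.21, 5.61 and 3.14 CPM in control, a 4.99-fold fall (log2 -2.32 ± 0.29, adjusted p = 0.00026). The groups did not overlap under either anesthetic.

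Adh5, the class III enzyme that clears formaldehyde and S-nitrosoglutathione, fell less. Its libraries of Isoflurane sepsis were at 49.4, 55.9, 38.4 and 24 CPM and the controls at 94.8, 89.8, 100.1 and 92.0 CPM (log2 -1.16 ± 0.21, adjusted p = 0.00227). Propofol sepsis was at 64.7, 44.0, 69.5 and 73.2 CPM and its controls at 94.6, 128, 126 and 104 CPM (log2 -0.85 ± 0.15, adjusted p = 0.00194). Adh7, the class IV retinol dehydrogenase known best from the stomach, was low throughout. It read 1.88, 2.26, 3.36 and 2.06 CPM in Isoflurane sepsis against 4.43, 4.03, 5.65 and 5.15 CPM (log2 -0.99 ± 0.20, adjusted p = 0.00409). In Propofol sepsis it read 3.07, 3.43, 1.45 and 1.84 CPM against 4.22, 6.48, 8.20 and 5.89 CPM (log2 -1.34 ± 0.30, adjusted p = 0.00534).

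Adh6 differed from the rest of the family in where it was found at all. Isoflurane sepsis held 0, 0, 37 and 88 reads of Adh6 in libraries 1 to 4 and isoflurane control 436, 300, 283 and 1166 reads, while the 8 propofol libraries held 1 read in library 12 and 1 read in library 16. Under isoflurane the fall was called (log2 -3.35 ± 0.82, adjusted p = 0.00909), but not by DESeq2 (adjusted p = 0.081), and without library 4 it was -4.75. Between the control groups the counts were 2185 and 1 reads, a depth-corrected ratio of 1325, for which counting error alone gives bounds of 238 and 52363 at 95%. Library 8, with most reads of Adh6, was also the deepest library, and its level of 24.5 CPM stood beside 20.5, 14.8 and 13.2 CPM in the other isoflurane controls. In GRCr8 Adh7, Adh1 (as Adh1c), Adh6a, Adh6, Adh4 and Adh5 follow each other with no other protein-coding gene between them. Adh6a, the immediate neighbour of Adh6, held 8 reads in all.

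Among the aldehyde dehydrogenases 12 of 17 tested members were called lower under isoflurane and 11 of 17 under propofol (24.4% and 21.7% of all genes tested). None was called higher under either anesthetic by edgeR (25.7% and 20.4% of all genes). Aldh3a2, the fatty aldehyde dehydrogenase, fell with little spread under isoflurane. It was at 46.0, 52.8, 50.7 and 44.8 CPM in Isoflurane sepsis and at 191, 200.1, 221 and 217 CPM in control, a 4.22-fold fall (log2 -2.08 ± 0.08, adjusted p = 6.37e-06). Under propofol it was at 122, 137, 97.8 and 102 CPM in sepsis and at 288, 475, 564 and 297 CPM in control, a 3.53-fold fall (log2 -1.82 ± 0.23, adjusted p = 0.000264). Both propofol groups stood above their isoflurane counterparts in every library.

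Aldh8a1, an enzyme of the kynurenine pathway of tryptophan breakdown, fell 4.50-fold under isoflurane. Its libraries were at 58.4, 54.6, 40.5 and 23.5 CPM in sepsis and at 197, 186, 217 and 203 CPM in control (log2 -2.17 ± 0.24, adjusted p = 0.000219). Under propofol it was at 102, 55.9, 89.7 and 95.7 CPM in sepsis and at 213, 203, 227 and 213 CPM in control, a 2.49-fold fall (log2 -1.32 ± 0.15, adjusted p = 0.000191). The controls of the 2 anesthetics did not differ beyond their spread (log2 -0.09 ± 0.06, adjusted p = 0.249), and the responses differed by -0.86 ± 0.30, which was not called (adjusted p = 0.108).

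The other enzymes of amino acid, amine and choline breakdown moved the same way. With Aldh8a1 counted among them, 5 of the 6 in this group were called lower under isoflurane (24.4% of all genes tested), and 5 of 6 under propofol (21.7%). The exception was Aldh7a1, of lysine breakdown (-0.14 and -0.10, adjusted p = 0.377 and 0.258). Log2 fold changes under isoflurane and propofol were -1.45 and -1.08 for Aldh9a1, of carnitine synthesis, and -1.04 and -0.76 for Aldh5a1, which clears the succinic semialdehyde of GABA. They were -0.94 and -0.52 for Aldh4a1, of proline breakdown, and -0.64 and -0.35 for Aldh6a1, of valine breakdown. The 10-formyltetrahydrofolate dehydrogenases were called lower in every comparison, with -0.77 and -0.55 for the cytosolic Aldh1l1 and -0.84 and -0.52 for the mitochondrial Aldh1l2. For Aldh1l2 the propofol call was lost without library 14 (adjusted p = 0.0572).

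Aldh2, the mitochondrial enzyme that removes acetaldehyde, held most reads of the family and was not called. It was at 842, 913, 959 and 846 CPM in Isoflurane sepsis against 847, 822, 855 and 875 CPM (log2 0.08 ± 0.07, adjusted p = 0.35). In Propofol sepsis it was at 674, 664, 641 and 639 CPM against 680.0, 708, 704 and 726 CPM (log2 -0.10 ± 0.05, adjusted p = 0.148). The propofol sepsis libraries were all just below their controls, and the difference was called with scaling by library totals (-0.16, adjusted p = 0.0347). Aldh1b1, the related mitochondrial enzyme, was called lower under isoflurane (-1.04, adjusted p = 0.0268) but lost the call without library 2, 3, 4, 6, 7 or 8 (adjusted p between 0.0505 and 0.0726). Its fold change under propofol was -0.95 (adjusted p = 0.066), which DESeq2 called (adjusted p = 0.0386), as did the fit without library 13 (adjusted p = 0.00841).

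The Aldh1a genes, which include the retinaldehyde-oxidizing enzymes, were called lower for 3 of 4 under isoflurane and 2 of 4 under propofol (24.4% and 21.7% of all genes tested). The isoflurane count includes Aldh1a7, whose call was unstable, as described below. Aldh1a1, the main cytosolic form, changed by -1.50 under isoflurane (adjusted p = 0.000134) and by -1.20 under propofol (adjusted p = 0.0231). Its propofol call was lost without library 12, 14 or 15 (adjusted p between 0.0507 and 0.0678), and libraries 11 and 12, at 9.04 and 9.95 CPM, were well below libraries 9 and 10, at 24.5 and 24.3 CPM. Aldh1a3 was at 5.06, 2.97, 0.983 and 1.71 CPM in Isoflurane sepsis against 7.02, 6.79, 7.28 and 6.20 CPM (log2 -1.33 ± 0.38, adjusted p = 0.0173). It was at 3.41, 2.00, 3.34 and 3.38 CPM in Propofol sepsis against 7.52, 9.22, 7.62 and 6.96 CPM (log2 -1.37 ± 0.18, adjusted p = 0.000324). Aldh1a2, at most 1.05 CPM in every library, and Aldh16a1, at 47.0 to 62.0 CPM, were not called under either anesthetic. Aldh3b1 was called only under propofol (-0.71, adjusted p = 0.047), and the call was lost with any 1 of the 8 libraries left out (adjusted p between 0.0506 and 0.168) and by DESeq2 (adjusted p = 0.15).

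Aldh1a7, a close relative of Aldh1a1 whose reads may not be fully separated from it, split the Isoflurane sepsis group. Its libraries were at 2.13, 1.49, 14.2 and 33.1 CPM in sepsis and at 63.0, 48.7, 45.9 and 71.5 CPM in control. Libraries 1 and 2 were far below the lowest control, whereas library 4 was the closest to it. The fall was called (log2 -2.14 ± 0.77, adjusted p = 0.0438) but lost without library 1, 2, 3, 5, 6, 7 or 8 (adjusted p between 0.054 and 0.0937), and without library 4 it was -3.22. Under propofol Aldh1a7 was at 8.06, 3.43, 0.161 and 0.307 CPM in sepsis and at 7.52, 10.9, 6.18 and 2.51 CPM in control, with overlap and no call (log2 -1.22 ± 0.88, adjusted p = 0.289).

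The aldo-keto reductases held 11 members called lower of 16 tested under isoflurane and 13 of 15 under propofol (24.4% and 21.7% of all genes tested). Akr1c14, the hydroxysteroid dehydrogenase of rat liver that acts on androgens and bile acid precursors, held most reads of the family in the controls. It was at 79.8, 111, 121 and 33.8 CPM in Isoflurane sepsis and at 527, 529, 569.7 and 599 CPM in control, a 6.38-fold fall (log2 -2.67 ± 0.34, adjusted p = 0.000385). Under propofol it was at 294, 135, 213 and 242 CPM in sepsis and at 930.4, 1105, 1196 and 1016 CPM in control, a 4.81-fold fall (log2 -2.27 ± 0.20, adjusted p = 5.63e-05). The groups were several-fold apart under both anesthetics, and both propofol groups were above the matching isoflurane groups in every library.

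The steroid-acting group of Akr1c genes and Akr1d1 was called lower for 8 of 9 tested members under each anesthetic (24.4% and 21.7% of all genes tested). Akr1d1, a steroid reductase, changed by -0.60 under isoflurane (adjusted p = 0.022, and 0.0578 without library 7) and by -1.11 under propofol (adjusted p = 0.000381). Akr1c12 (-1.48 and -1.08), Akr1c19 (-0.99 and -1.08), Akr1c13 (-0.86 and -0.76) and Akr1cl (-1.0 and -0.63) were called lower under isoflurane and propofol. Akr1c1 was at 2.78, 5.24, 6.15 and 3.65 CPM in Isoflurane sepsis against 13.6, 10.2, 10.8 and 15.0 CPM, with no overlap (log2 -1.46 ± 0.24, adjusted p = 0.0014). Under propofol Akr1c1 was at 7.78, 4.19, 4.09 and 5.53 CPM against 8.82, 7.70, 8.39 and 10.2 CPM, where library 9 reached the lowest control (log2 -0.70 ± 0.20, adjusted p = 0.0171), and the call was lost without library 16 (adjusted p = 0.0556). Akr1c3 was called under isoflurane (-0.74, adjusted p = 0.00838) and not under propofol (-0.32, adjusted p = 0.334). In GRCr8 Akr1c13, Akr1c19, Akr1c12, Akr1c3, Akr1c14 and Akr1cl, with the untested Akr1c12l1, form a run with no other protein-coding gene between them. In this run 6 of 6 tested members were called lower under isoflurane and 5 of 6 under propofol (24.4% and 21.7% of all genes tested). These genes are close in sequence, and single Akr1c values are uncertain for the reason given above.

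Akr1c2 was the exception of this group under isoflurane. Its libraries were at 2.58, 4.78, 22.8 and 68.9 CPM in Isoflurane sepsis and at 42.1, 33.0, 31.8 and 48.0 CPM in control, so that library 4 was above every control and libraries 1 and 2 were far below (log2 -0.62 ± 0.80, adjusted p = 0.545). Without library 4 the difference was -1.91 (adjusted p = 0.032). Under propofol it was called lower (-0.72 ± 0.20, adjusted p = 0.0177), a call lost without library 14 or 16 (adjusted p = 0.0533 and 0.0538) and in the fit of all 16 libraries (adjusted p = 0.429).

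Akr7a2, which reduces succinic semialdehyde, and Akr7a3, which reduces the dialdehyde of aflatoxin, both fell under both anesthetics. Akr7a2 was at 11.6, 13.4, 8.79 and 6.95 CPM in Isoflurane sepsis against 29.5, 29.6, 30.4 and 30.6 CPM (log2 -1.54 ± 0.17, adjusted p = 0.000209). Its Propofol sepsis libraries read 24.1, 14.2, 22.1 and 23.9 CPM against 47.3, 74.2, 61.0 and 50 CPM (log2 -1.46 ± 0.18, adjusted p = 0.000286). Akr7a3 was at 4.56, 7.11, 6.36 and 4.18 CPM in Isoflurane sepsis against 16.5, 18, 14.5 and 13.4 CPM (log2 -1.47 ± 0.18, adjusted p = 0.00035). The level of Akr7a3 was far higher under propofol, at 36.3, 25.6, 31.6 and 25 CPM in sepsis and 223, 106, 239 and 108 CPM in control, a 5.70-fold fall (log2 -2.51 ± 0.29, adjusted p = 0.00018). Every Propofol sepsis library was still above every isoflurane control library.

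**Figure D3:**
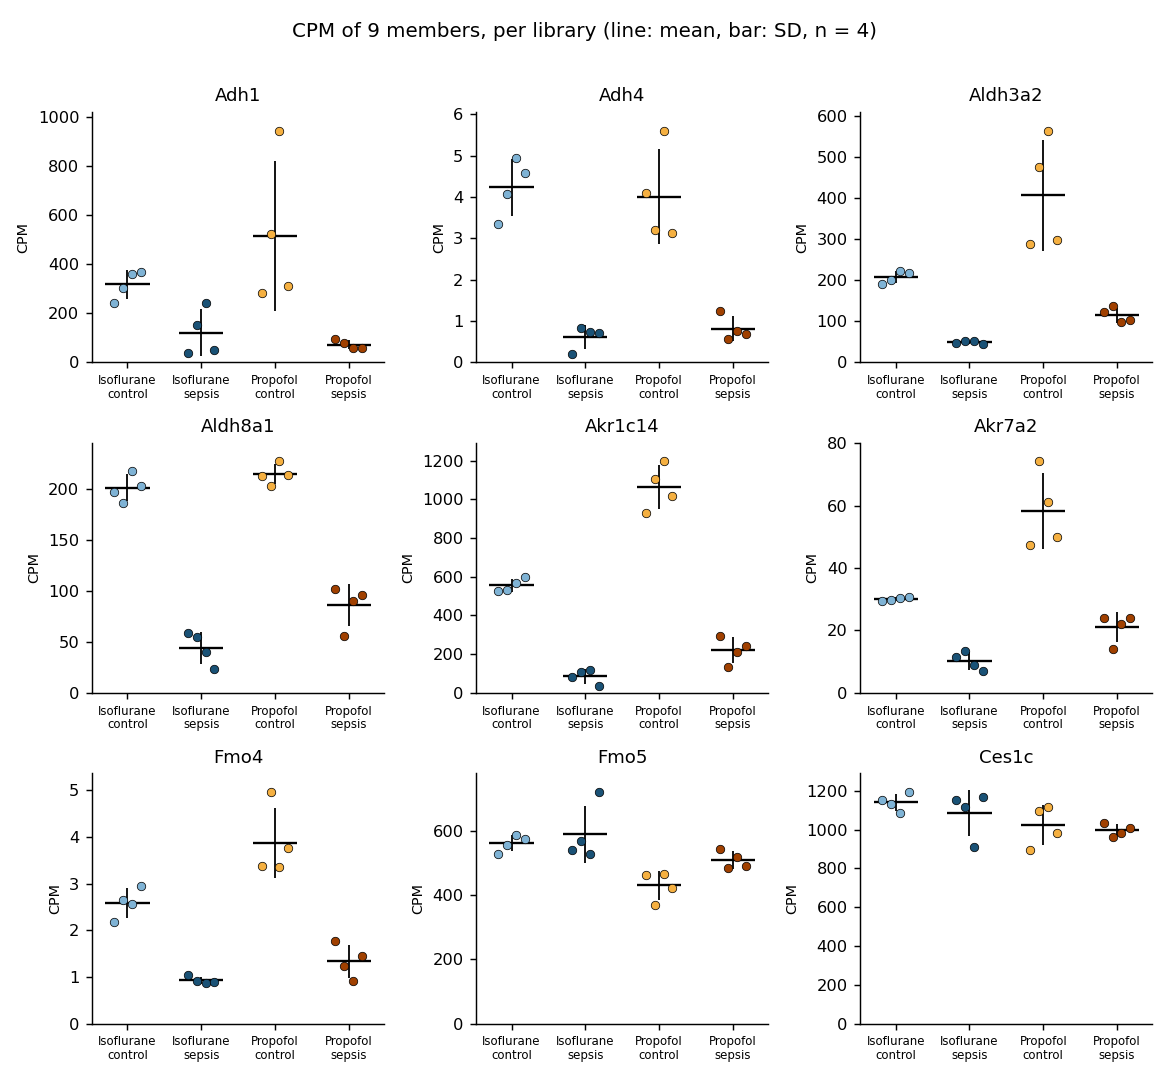
CPM (vertical axis, from 0) of Adh1, Adh4, Aldh3a2, Aldh8a1, Akr1c14, Akr7a2, Fmo4, Fmo5 and Ces1c in each library of the 4 groups, with the group mean as a line and the SD as a bar. The first 7 are lower in sepsis than in control in every library of each anesthetic, Fmo5 is higher in Propofol sepsis than in its controls, and the groups of Ces1c overlap.

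The aldehyde and aldose reductases of the Akr1a, Akr1b and Akr1e type were mixed. Akr1e2 was called lower under both anesthetics (-1.26 and -1.17). Akr1a1, the general aldehyde reductase, changed by -0.21 under isoflurane (adjusted p = 0.0777) and by -0.22 under propofol (adjusted p = 0.0292), a call lost without library 9, 10, 11, 14 or 16 (adjusted p between 0.0513 and 0.0776). Akr1b1, aldose reductase itself, was at 3.47, 2.52, 2.84 and 4.95 CPM in Isoflurane sepsis against 2.40, 2.36, 3.45 and 3.30 CPM (log2 0.27 ± 0.23, adjusted p = 0.365). Propofol sepsis gave 3.97, 3.95, 4.95 and 3.47 CPM against 4.61, 6.07, 6.09 and 6.09 CPM (log2 -0.49 ± 0.15, adjusted p = 0.0272). This call was lost without library 9, 12, 14, 15 or 16 (adjusted p between 0.0565 and 0.0708).

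Akr1b8, an aldose reductase-like enzyme, was the only member called higher under isoflurane by edgeR. It was at 1.29, 2.46, 3.78 and 5.48 CPM in Isoflurane sepsis and at 0.895, 0.935, 0.747 and 1.20 CPM in control, a 3.40-fold rise (log2 1.77 ± 0.41, adjusted p = 0.00737) in which library 1 was just above the highest control. Under propofol it was at 8.40, 6.00, 14 and 10.2 CPM in sepsis and at 8.30, 6.36, 13.1 and 3.48 CPM in control, with full overlap (log2 0.30 ± 0.36, adjusted p = 0.523). Akr1b7, its neighbour in GRCr8 apart from Akr1b10, was near absent from libraries 1 and 2, at 0.0496 and 0.0647 CPM, and high in libraries 3 and 4, at 13.4 and 11.4 CPM. Its controls were at 3.91, 3.54, 3.17 and 4.79 CPM, between these extremes (log2 0.72 ± 1.01, adjusted p = 0.578). Propofol sepsis held 0.227, 0.191, 0.431 and 0.0921 CPM of Akr1b7 and propofol control 0.324, 0.233, 0.383 and 0.290 CPM, too low for a test of that pair.

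**Figure D4:**
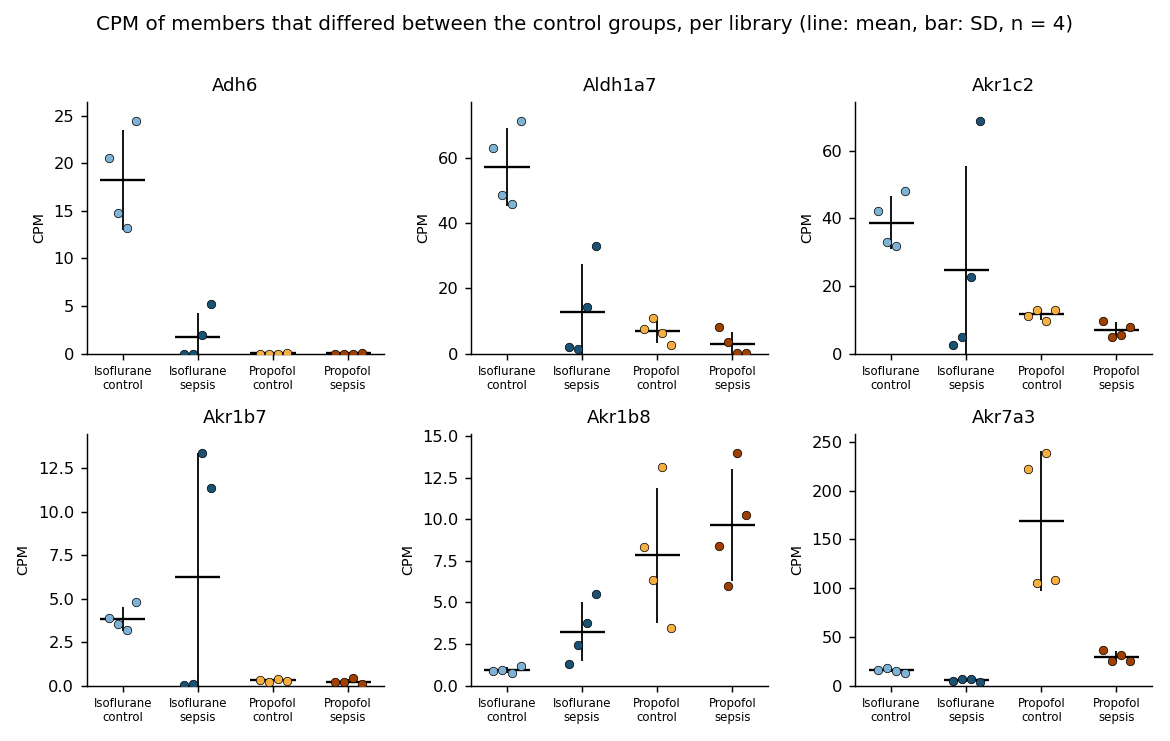
CPM (vertical axis, from 0) of Adh6, Aldh1a7, Akr1c2, Akr1b7, Akr1b8 and Akr7a3 in each library of the 4 groups, with the group mean as a line and the SD as a bar. Adh6, Aldh1a7, Akr1c2 and Akr1b7 were higher in isoflurane control than in propofol control and are spread widely within Isoflurane sepsis, whereas Akr1b8 and Akr7a3 were higher in propofol control.

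The flavin-containing monooxygenases went in different directions. Under isoflurane 2 of 4 tested members were called lower, where 24.4% of all genes tested were. Under propofol 1 of 4 was called lower and 1 higher, where 21.7% and 20.4% of all genes were. Fmo5, a Baeyer-Villiger oxygenase that held most reads of the family, was at 539.5, 569, 527 and 720.5 CPM in Isoflurane sepsis against 529, 554, 585 and 574 CPM (log2 0.09 ± 0.11, adjusted p = 0.523). The libraries of Propofol sepsis held 543, 485, 519.6 and 490.0 CPM against 462, 368, 466 and 422 CPM (log2 0.25 ± 0.08, adjusted p = 0.03). The groups did not overlap, but the call was lost without library 9, 11, 14 or 16 (adjusted p between 0.0629 and 0.0853), in the fit of all 16 libraries (adjusted p = 0.0553), with no filter (adjusted p = 0.0612) and by library totals alone (adjusted p = 0.0917).

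Fmo4, a low member, was called lower under both anesthetics. It was at 1.04, 0.905, 0.879 and 0.883 CPM in Isoflurane sepsis against 2.17, 2.66, 2.57 and 2.94 CPM (log2 -1.46 ± 0.16, adjusted p = 0.000222). In Propofol sepsis it was at 1.76, 1.24, 0.915 and 1.44 CPM against 3.37, 4.96, 3.36 and 3.77 CPM (log2 -1.52 ± 0.23, adjusted p = 0.000697). Fmo4 thus fell in the same Propofol sepsis libraries in which Fmo5 was above its controls. Fmo2, the form known from lung, was at 7.68, 3.94, 2.28 and 2.71 CPM in Isoflurane sepsis against 7.11, 7.53, 9.38 and 8.38 CPM. Library 1 lay within the controls, and the call (log2 -0.94 ± 0.32, adjusted p = 0.0371) was lost without library 2, 3, 4, 5, 6, 7 or 8 (adjusted p between 0.0584 and 0.0905). Under propofol Fmo2 was not called (5.28, 4.86, 7.16 and 6.76 CPM against 5.90, 5.43, 7.38 and 8.21 CPM, adjusted p = 0.461). Fmo1 was not called under isoflurane (-0.94, adjusted p = 0.0978), where library 4 stood at 2.59 CPM beside 11.7 to 17.3 CPM, and without that library it was called (-0.61, adjusted p = 0.027). Under propofol Fmo1 was not called (-0.35, adjusted p = 0.103) but was without library 9 (-0.46, adjusted p = 0.0495).

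The carboxylesterases changed least. Of 8 tested members 2 (25%) were called lower under isoflurane and 3 (37.5%) under propofol, where 24.4% and 21.7% of all genes tested were. None was called higher by edgeR, where 25.7% and 20.4% of all genes were, and the family medians were -0.16 and -0.15. Ces1c, an esterase that rodent liver secretes into plasma, held most reads of the family. It was at 1152, 1115, 913 and 1166 CPM in Isoflurane sepsis against 1154, 1129, 1088 and 1194 CPM (log2 -0.06 ± 0.09, adjusted p = 0.616). Its Propofol sepsis libraries read 1035, 962, 981 and 1009 CPM against 893, 1098, 1117 and 984 CPM (log2 -0.03 ± 0.08, adjusted p = 0.738). The groups overlapped under both anesthetics. Ces1e was not called under isoflurane (30.4, 33.4, 39.7 and 34.5 CPM against 34.7, 38.6, 38.7 and 42.0 CPM, adjusted p = 0.275). Under propofol Ces1e fell from 41.6, 45.6, 57.2 and 42.7 CPM to 35.1, 31.9, 30.6 and 32.7 CPM (log2 -0.52 ± 0.10, adjusted p = 0.00276), with no overlap.

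The Ces2 genes, whose enzymes split esters with small acyl groups such as many prodrugs, changed by little. Ces2h was at 31.1, 32.8, 32.1 and 32.4 CPM in Isoflurane sepsis against 37.6, 36.1, 35.4 and 38.5 CPM (log2 -0.18 ± 0.06, adjusted p = 0.0339), and lost the call without library 1, 5, 6 or 8 (adjusted p between 0.0575 and 0.1) and in the fit of all 16 libraries (adjusted p = 0.0683). Propofol sepsis gave 33.3, 29.9, 26.2 and 27.3 CPM against 34.1, 38.7, 40.5 and 32.5 CPM (log2 -0.32 ± 0.10, adjusted p = 0.0281), and lost the call without library 11, 12, 14 or 15 (adjusted p between 0.0739 and 0.0764). These falls were small, and each call was kept in the other 4 fits without 1 library. Ces2g was at 7.39, 7.24, 8.12 and 9.31 CPM in Isoflurane sepsis against 10.5, 9.84, 10.9 and 10.0 CPM (log2 -0.35 ± 0.11, adjusted p = 0.024), and lost the call without library 2, 5 or 7 (adjusted p between 0.0531 and 0.0651). Its propofol groups, at 6.75, 6.19, 5.76 and 5.28 CPM and at 6.88, 6.89, 6.85 and 6.13 CPM, overlapped (adjusted p = 0.286).

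Ces4a was the low member of the family with the largest called change. Under propofol the sepsis libraries were at 2.27, 2.72, 1.99 and 1.87 CPM against 3.63, 3.21, 2.83 and 3.96 CPM (log2 -0.62 ± 0.18, adjusted p = 0.0224), and it lost the call without library 11, 12, 13 or 16 (adjusted p between 0.0537 and 0.0653). In Isoflurane sepsis it was at 2.13, 2.52, 3.93 and 4.48 CPM against 5.13, 4.87, 4.72 and 4.58 CPM, not called (log2 -0.54 ± 0.23, adjusted p = 0.0752) but called without library 4 (-0.73, adjusted p = 0.0192), in the fit of all 16 libraries (adjusted p = 0.0345) and by library totals alone (adjusted p = 0.0452). Ces2a, Ces2e and Ces1d were not called under either anesthetic. Under isoflurane Ces2e was at 31.7, 23.9, 48.5 and 63.6 CPM against 26.5 to 33.0 CPM, with libraries 3 and 4 above and library 2 below the controls, and it was called higher without library 2 (0.69, adjusted p = 0.0306). Without library 4 Ces2a was called lower (-0.62, adjusted p = 0.0054) and Ces1d higher (0.38, adjusted p = 0.0423).

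Members of all 5 families were read in the same libraries, and how often a library was the lowest or highest of its group is given beside the share of all genes. Of the 50 members tested under isoflurane, library 4 was the lowest of its group for 18 (36%), against 29.3% of all genes tested. It was the highest for 16 of the 50, against 27.2% of all genes. Of the 48 tested under propofol, library 10 was the lowest of its group for 24 members (50%), against 41.3% of all genes. Library 9 was the highest for 28 of the 48, against 21.3% of all genes. Library 13 was the lowest propofol control for 23 members (47.9%), against 22.7% of all genes tested.

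Whether the response to sepsis differed between the anesthetics was asked as an interaction over all 16 libraries (isoflurane minus propofol). By edgeR 0 of 50 members were called, where 2.72% of all 10621 genes were, and DESeq2 also called 0 members. An unadjusted p below 0.05 was found for 8 of the 50 members and for 2452 of the 10621 genes. The smallest p belonged to Aldh8a1 (-0.86 ± 0.30, adjusted p = 0.108), Akr7a3 (1.03 ± 0.37, adjusted p = 0.118), Akr1b1 (0.75 ± 0.29, adjusted p = 0.136), Ces1e (0.37 ± 0.14, adjusted p = 0.147) and Akr1c1 (-0.77 ± 0.32, adjusted p = 0.169). The fitted fall of Aldh8a1 and Akr1c1 was larger under isoflurane, and that of Akr7a3 and Ces1e under propofol, whereas Akr1b1 had fold changes of opposite sign (0.27 and -0.49), none of these differences beyond the threshold. Without library 1 edgeR called Aldh8a1 (-1.03, adjusted p = 0.0285) and Fmo2 (-1.28, adjusted p = 0.00826), and without library 4 it called Ces2a (-0.64, adjusted p = 0.0465). Adh6, Akr1b7 and Aldh1a7 had standard errors of 1.23 or more in the interaction, and for Adh6 and Akr1b7 the propofol libraries were too low to be tested as a pair.

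The control groups also differed from each other. Isoflurane control was called lower than propofol control for 13 of 50 members (21.7% of all genes tested were) and higher for 14 (21.6%). With library totals as the only scaling, the all-gene median moved from -0.00049 to -0.15, and 24 members were called lower and 11 higher. Of 16 tested Akr genes 9 were called lower and 4 higher, whereas of 8 Ces genes 1 was lower and 4 higher. Akr7a3 had the largest difference toward propofol, at 15.6 ± 2.04 CPM against 169 ± 71.8 CPM (log2 -3.44 ± 0.28, adjusted p = 1.42e-05). Akr1b8 followed, at 0.943 ± 0.187 against 7.82 ± 4.06 CPM (log2 -2.98 ± 0.38, adjusted p = 0.000182).

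Differences toward isoflurane were led by Adh6, as counted above. Akr1b7 was at 3.85 ± 0.691 CPM in isoflurane control against 0.308 ± 0.0628 CPM in propofol control (log2 3.64 ± 0.22, adjusted p = 3.21e-06), and Aldh1a7 at 57.3 ± 12.1 against 6.78 ± 3.47 CPM (log2 3.12 ± 0.30, adjusted p = 2.97e-05). Akr1c2 differed by 1.76 ± 0.15 (adjusted p = 1.44e-05), a call lost in the fit of all 16 libraries (adjusted p = 0.0586), and Ces2a by 1.11 ± 0.09 (adjusted p = 1.68e-05). Akr1c14 was lower in isoflurane control (-0.93 ± 0.08, adjusted p = 1.44e-05), and so were Aldh3a2 (-0.96 ± 0.19, adjusted p = 0.00226) and Akr7a2 (-0.95 ± 0.12, adjusted p = 0.000171).

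Other phase I and related enzymes outside the P450 family were followed with a list of 40 genes. The list also held Por, Cyb5a and Cyb5r3, electron carriers of the P450 system, and the hydrolases Lipa and Gusb. Under isoflurane 19 of 35 tested were called lower and 1 higher, with a median of -0.72, where 24.4% and 25.7% of all genes tested were. Under propofol 22 of 36 were lower and 5 higher, with a median of -0.52, where 21.7% and 20.4% of all genes were. Ephx2, the soluble epoxide hydrolase, fell under isoflurane (0.446, 0.970, 1.97 and 3.30 CPM against 9.61, 11.6, 9.01 and 15.3 CPM, log2 -2.76 ± 0.45, adjusted p = 0.0013). In the propofol groups Ephx2 was at 1.65, 1.05, 3.55 and 1.97 CPM in sepsis against 2.21, 2.04, 2.73 and 2.08 CPM (adjusted p = 0.731). It was the only gene of this list called in the interaction by edgeR (-2.61 ± 0.60, adjusted p = 0.0366). Dhrs3, a retinaldehyde reductase, fell under both anesthetics (-2.02 and -1.85), as did Sord, sorbitol dehydrogenase (-1.79 and -1.77). Aox3, an aldehyde oxidase, fell by 2.29 on the log2 scale under propofol and by 1.37 under isoflurane. Maoa, monoamine oxidase A, rose under both (0.51 and 0.61), and Dpyd, Rdh7, Rdh16 and Xdh rose under propofol, by between 0.22 and 0.81.

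Among the 11 transcription factors of a second list, 5 were called lower and 2 higher under isoflurane (24.4% and 25.7% of all genes tested were), and 8 lower and 0 higher under propofol by edgeR (21.7% and 20.4%). Nr1i3, the receptor CAR, was at 0.198, 0.388, 0.879 and 0.0589 CPM in Isoflurane sepsis against 2.35, 3.94, 5.23 and 5.10 CPM (log2 -3.40 ± 0.51, adjusted p = 0.000857). The libraries of Propofol sepsis held 1.02, 0.286, 0.0538 and 0.215 CPM against 8.63, 13, 18.6 and 10.8 CPM (log2 -5.10 ± 0.49, adjusted p = 8.87e-05), the lowest fold change of all genes tested there. Nr1i2, the receptor PXR, fell by 1.27 and 0.89 on the log2 scale, and Rxra, the partner of both, by 1.19 and 0.81. Under propofol Ahr (-1.02) and Esr1 (-0.99) fell as well. Cebpa rose under isoflurane (1.17 ± 0.25, adjusted p = 0.00501), where library 3 was at 163 CPM beside 73.8 to 89.9 CPM, and not under propofol (-0.07, adjusted p = 0.588). In the interaction the fold changes of Cebpa (1.22, adjusted p = 0.0366) and Nfe2l2, encoding NRF2 (0.79, adjusted p = 0.0249), were called higher under isoflurane than under propofol. Nfe2l2 was not called under isoflurane (0.31, adjusted p = 0.0996) and was called lower under propofol (-0.50, adjusted p = 0.000892). The part of these factors in the members' values was not tested.

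**Figure D5:**
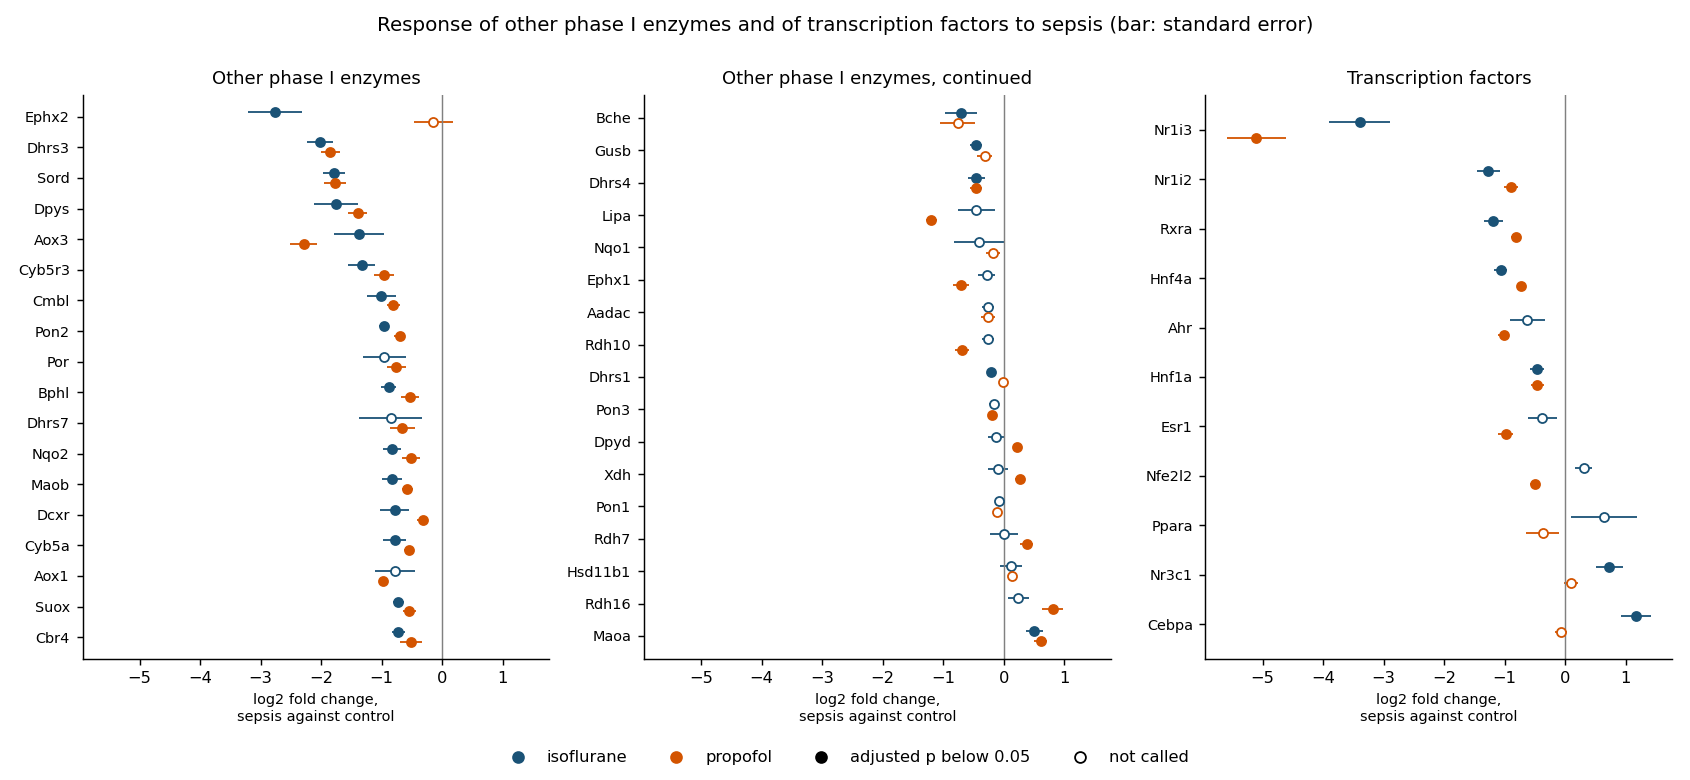
Log2 fold change of sepsis against control (horizontal axis) for other phase I and related enzymes outside the P450 family and for 11 transcription factors, with isoflurane in blue, propofol in orange, standard errors as bars, and filled points for an adjusted p below 0.05. Most enzymes lie left of 0, Ephx2 lies far left under isoflurane alone, and Nr1i3 lies furthest left, at -3.40 and -5.10.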

How the data were processed

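The authors deposited counts for 16 libraries, that is whole numbers of reads per gene symbol without normalization. The labels state poly(A) selection and a directional kit, and the submitters' processing notes name STAR and the build rn5. No source used here gives the counting program or annotation. Reads on no gene (21.6% to 25.4%) or on several genes (1.07% to 1.35%) were left out.

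For each anesthetic 4 sepsis libraries were set against 4 control libraries, and the controls against each other, with edgeR 4.0.16 (quasi-likelihood test) in R 4.3.3. TMM scaling and filterByExpr (minimum count 10, minimum total 15) were used. P-values were adjusted by Benjamini-Hochberg over all genes tested and called below 0.05. The interaction used all 16 libraries. Errors after ± are SD over 4 libraries for CPM and standard errors for log2 fold changes. P-values measure the spread between pools of 3 rats. Counts of libraries of the same group differed by more than sampling noise (chi-square per degree of freedom 3.35 to 96.3). The fits were tested on simulated data.

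Alternatives were RLE size factors, library totals alone, DESeq2 1.42.0 (the tool of the study), leaving out 1 library at a time, a threshold of 0.01, fitting all 16 libraries together, and no filter. Levels are not divided by transcript length, and neither are the family sums nor the share of a member in a sum.

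Of the symbols that match the rule for members, 1 is not reported here and enters no count, median or sum of members, though it stayed in the fits over all genes. The members, the lists of other phase I and related enzymes and of transcription factors and the marker lists were chosen with earlier results of these data known. Values per library are given for the member of each family with most reads, the 3 called members of each family with the largest change in each sepsis comparison, the 5 members with the smallest p in the interaction and the 3 with the smallest p between the controls. Of the other lists the 3 called genes with the largest change were named. Further genes were named after their values were seen. RefSeq symbols in GRCr8 matched 58 members, 3 more matched by synonym and Aldh1a7 did not match. The build differs from rn5, so only order and promoter windows were taken from it.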

Additional observations from a re-analysis of the deposited data

Results flagged for a closer look

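A library far from the others of its group by Dixon's test was found for 4 of 116 combinations of member and group examined, and chance alone flags about 1 in 20 such groups. Fmo4 in library 1 of Isoflurane sepsis was at 1.04 CPM, beside 0.879 to 0.905 CPM in the other 3 libraries, and stayed below every control. Ces2g in library 16 of propofol control was at 6.13 CPM, beside 6.85 to 6.89 CPM. Aldh1a3 in library 10 of Propofol sepsis was at 2.00 CPM, beside 3.34 to 3.41 CPM. Akr1b1 in library 13 of propofol control was at 4.61 CPM, beside 6.07 to 6.09 CPM.

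Markers of brain, which belong to no comparison of these enzymes, summed to 251 CPM in library 10 of Propofol sepsis and to between 5.51 and 17.0 CPM in the control libraries. Mbp was at 158 CPM in that library. Without library 10 the propofol comparison kept 31 of its 33 calls.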

How the results depend on the processing

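Of 32 members called under isoflurane 25 were called in the same direction in all 13 alternatives at the same threshold, and of 33 under propofol 23 were. The share of all called genes that kept their calls in this way was not counted, so these counts have no background to be read against. The number called higher by edgeR under propofol, 1 with the settings of the report, was 0 with library totals alone, no filter, all 16 libraries in 1 fit or an adjusted p below 0.01, and 0 to 1 over fits without 1 library, since Fmo5 lost its call. Under propofol 21 were called lower at an adjusted p below 0.01. Without 1 library, 1 to 2 were called higher under isoflurane. The interaction gave 0 to 2 members without 1 library. Between the controls 24 were called lower with library totals alone and 8 higher in the fit of all 16 libraries. The cause of these shifts was not tested. Leaving out 1 library turned the sign of uncalled fold changes, which ranged under isoflurane from -0.029 to 0.14 for Fmo5, from -0.097 to 0.015 for Ces1c and from -0.0053 to 1.14 for Akr1b7, and under propofol from -0.097 to 0.0047 for Ces1c. No paired analysis was possible because the groups compared share no replicate numbers. The 12 members with at most 31 reads in all were not tested.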
